A study of Sus scrofa with 75 samples.

Results

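The miR-99, miR-100, miR-125 and miR-10 miRNAs were followed in peripheral blood mononuclear cells (PBMCs) of piglets. Members were all mature names miR-99a, miR-99b, miR-100, miR-125a, miR-125b, miR-10a and miR-10b in the miRNA count table, arms included, which gave 9 of 457 mature names. Of these, 8 were among the 209 miRNAs tested, those read in 17 or more libraries at more than 2 reads on average. The other, miR-10a-3p, had 19 reads in all, was at 0 in 34 of 39 libraries and was not tested.

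Small RNA was sequenced from 13 synthetic large white piglets, each bled at d 11, d 20 and d 56 of life, which gave 39 libraries. The 8 control piglets were reared conventionally in farrowing crates, and the 5 topsoil piglets had fresh topsoil daily from d 4 to d 20. At d 20 piglets of both treatments were weaned and moved to a nursery without soil, so that age, weaning and the change of housing cannot be told apart. Blood was drawn from piglets of median body weight in their litters, the cells were taken from a Histopaque density gradient, and RNA had to meet limits on quantity and on the RNA quality indicator (RQI). The treatment and age used here are those of the column names and sample descriptions. The separate sample characteristics give both alike for only 6 of the 39 libraries, which of the labels are right was not settled, and every group value below rests on this choice.

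These miRNAs descend from old gene clusters in which a miR-99 or miR-100 gene, a let-7 gene and a miR-125 gene follow each other, while the miR-10 genes lie among the HOX genes. The miR-99 and miR-100 group is known to repress MTOR and IGF1R, the miR-125 group is known for its part in blood stem cells and in lymphoid and myeloid differentiation, and miR-10a is known from regulatory T cells. A miRNA finds its targets mainly through the seed, so members with one seed are expected to share many of them.

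The mature sequences of 7 of the 8 tested members are shown because the groups are defined by their seeds and because some members differ by a single base. They are given 5′ to 3′ as RefSeq annotates them on Sscrofa11.1, which is also the authors' build, with the seed (bases 2 to 8) in capitals.
miR-10a-5p: uACCCUGUagauccgaauuugu
miR-10b: uACCCUGUagaaccgaauuugu
miR-125a: uCCCUGAGacccuuuaaccugug
miR-125b: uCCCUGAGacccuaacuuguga
miR-99a-5p: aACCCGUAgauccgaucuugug
miR-99b: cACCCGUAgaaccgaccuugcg
miR-100: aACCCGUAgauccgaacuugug

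With positions counted from 1 at the 5′ end, miR-10a-5p and miR-10b differ by U12A alone, and miR-100 and miR-99a-5p by A16U alone. miR-99a-5p differs from miR-99b by A1C, U11A, U16C and U21C. miR-125a and miR-125b differ at 7 of 22 positions, all outside the seed. Reads of the pairs that differ by 1 base could be split or shared when mismatches are allowed in mapping, and their separate values are uncertain to that extent. The seed of miR-10 differs from that of the miR-99 and miR-100 group, as does that of miR-125. miR-10a-3p, from the other arm of the same precursor as miR-10a-5p, has a seed of its own.

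The members with an annotated position lie at 5 places in the genome, given by their mature sequences, while distances between miRNA genes are between their precursors. MIR10A is intergenic on the minus strand, with miR-10a-5p at chr12:24833694-24833715, 6137 bases from HOXB3 and 11509 bases from HOXB5. MIR10B is intergenic on the plus strand, with miR-10b at chr15:81951653-81951674, 10270 bases from LOC110257186 and 16125 bases from HOXD8. miR-99b at chr6:58332253-58332274 and miR-125a at chr6:58331613-58331635 are both on the minus strand outside annotated genes, with 565 bases and MIRLET7E between the precursors. miR-100, at chr9:49157952-49157973 outside annotated genes, and the miR-125b of MIR125B-1, at chr9:49109485-49109506 in an intron of the long noncoding RNA LOC106504205, are both on the minus strand, with 48394 bases and MIRLET7A-1 between the precursors. miR-99a-5p is on the plus strand at chr13:181302494-181302515, in an intron of LOC106508546, and its precursor is 646 bases from that of let-7c. miR-99a-3p and the second miR-125b gene are named only.

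Libraries held between 2570910 and 14311898 reads over all 479 entries of the table. One miRNA, the erythroid miR-486, took most of them. With 1 entry per mature name its share had a median of 91.3% in control and 88.9% in topsoil piglets at d 11, 77.7% and 89.2% at d 20, and 42.3% and 37.9% at d 56. At d 11 it ranged from 69.1% to 95.5% in control and from 76.1% to 95.2% in topsoil libraries, and at d 56 from 18.5% to 75.3% and from 11.8% to 48.2%. The reads of all other miRNAs were between 389906 and 6343113 per library, and the members together held between 0.0610% and 0.683% of these. Levels are given as CPM, with library sizes scaled to the 75% quantile of the counts, and as RPM, over the reads of a library other than miR-486. In bulk samples such as these, fewer cells of a type and less RNA per cell cannot be told apart.

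The miR-10 group held the most abundant member. miR-10a-5p was the highest in all 39 libraries, with a median of 252 CPM and a range of 61.1 to 825 CPM, and made up between 38.4% and 76.7% of the members' reads. miR-125b followed at a median of 33.6 CPM, miR-125a at 33.4, miR-99a-5p at 27.6, miR-99b at 26.7 and miR-10b at 18.6 CPM. Neighbours in this order changed places from library to library. miR-125b had more reads than miR-125a in 20 libraries and fewer in 19, and miR-99b had more than miR-10b in 23 and fewer in 16. miR-100, at a median of 1.23 CPM, was below miR-10b in all 39 libraries and did not stand apart from miR-99a-3p, at 0.734 CPM, each being the higher in 18 libraries. On the scale without miR-486 the median of miR-10a-5p was 1206 RPM and that of miR-100 was 6.90 RPM.

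**Figure D1:**
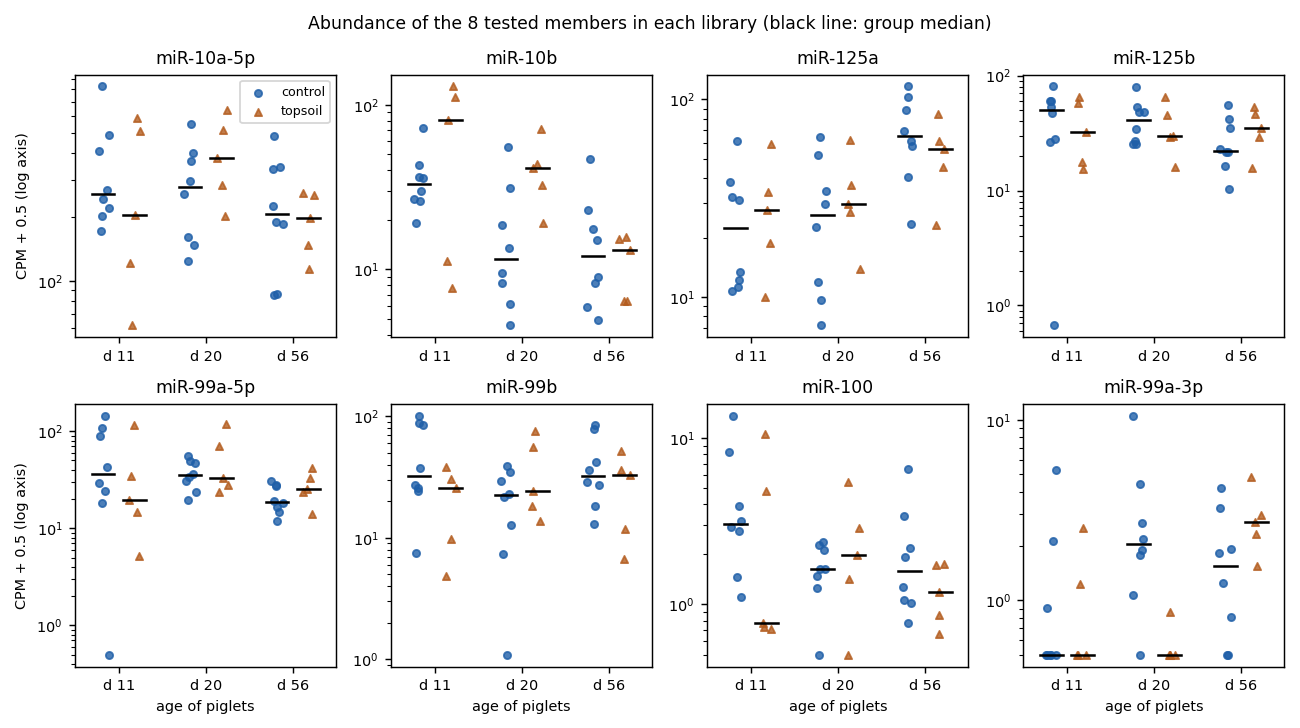
Abundance of the 8 tested members in each library, as CPM plus 0.5 on a log axis, by age and treatment. Each point is 1 library of 8 control (circles) or 5 topsoil (triangles) piglets and the black lines are group medians. On this scale miR-10b sits lower at d 56 than at d 11 and miR-125a higher, with overlap between ages, and 1 control library at d 11 has almost no miR-125b and no miR-99a-5p.

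With age, 2 of the 8 tested members changed between d 11 and d 56: miR-125a rose and miR-10b fell. miR-10b was not called with scaling by total counts, miR-125a was not called with library sizes without miR-486, and neither was called with the miR-486 level as a covariate. This compares the mean change over both treatments, with pig as a block and RQI as a covariate, by edgeR's quasi-likelihood test at a Benjamini-Hochberg adjusted p under 0.10. Over all miRNAs, 53 of 209 (25.4%) were called in this comparison, 36 higher and 17 lower at d 56, so the members' count is no larger a share than that of all miRNAs. The median log2 change of the 8 members was -0.34, with 3 higher and 5 lower, against 0.46 over all 209. DESeq2 called miR-100 as well, which was lower (adjusted p = 0.0679), among 68 of 209 miRNAs. limma, fitted with sex, parity and a random pig effect, called miR-99a-3p as well, which was higher (adjusted p = 0.0554), among 63. Within one treatment, edgeR called miR-125a in control piglets, among 37 of 209 miRNAs (17.7%), and miR-10b in topsoil piglets, among 28 of 209 (13.4%).

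miR-10b, which lies in the HOXD cluster, was between 18.7 and 71.7 CPM in the control piglets at d 11, with a median of 32.5 CPM. It was between 4.07 and 55.3 CPM at d 20, with a median of 11.0, and between 4.42 and 46.2 CPM at d 56, with a median of 11.6. Topsoil piglets 1 to 5 had 129, 111, 80.6, 10.7 and 7.18 CPM at d 11, then 70.6, 18.6, 41.1, 43.1 and 32.0 CPM at d 20, and 5.89, 15.1, 14.7, 5.92 and 12.7 CPM at d 56. The topsoil libraries of d 11 thus fell into 3 high and 2 low ones, the latter overlapping the d 56 values. Only topsoil piglet 5 had more miR-10b at d 56 than at d 11, and the other 12 of 13 pigs had less.

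The fitted log2 change of miR-10b from d 11 to d 56 was -1.78 ± 0.47 (SE, 39 libraries; edgeR adjusted p = 0.00543). It was -1.35 ± 0.58 in control and -2.21 ± 0.75 in topsoil piglets (edgeR adjusted p = 0.137 and 0.0534), and the difference between these changes was -0.86 ± 0.94 (edgeR adjusted p = 0.994). With scaling by total counts the change was 0.27, while the median of all 209 miRNAs was 2.38. Relative to the median of all miRNAs it was -2.24 with the quantile, -2.28 with TMM, -2.11 with total counts and -2.23 with library sizes without miR-486. From d 20 to d 56 the change was -1.05 ± 0.49 (edgeR adjusted p = 0.167), which was -1.28 and passed with library sizes without miR-486 (edgeR adjusted p = 0.0861) and was 0.78 with total counts (edgeR adjusted p = 0.247). It was -0.14 ± 0.61 in control and -1.97 ± 0.73 in topsoil piglets (edgeR adjusted p = 0.937 and 0.105). The difference between these was -1.83 ± 0.91 (edgeR adjusted p = 0.403).

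The CPM of miR-486 moved with that of miR-10b. Of the miRNAs that are not members, miR-486 had the pattern most like that of miR-10b over the 39 libraries, with a Spearman's rho of 0.77, and of 0.72 after the mean of each treatment and age was taken away. For miR-10a-5p the values were 0.66 and 0.73. This is a description over 3 libraries of each pig that share the scaling, not a test. With the miR-486 level as a covariate, the change of miR-10b from d 11 to d 56 was 0.23 (edgeR adjusted p = 0.920), and the calls over all miRNAs went from 53 to 7. The erythroid miRNAs miR-486, miR-451 and miR-144 all fell from d 11 to d 56, with log2 changes of -3.34 ± 0.54, -1.62 ± 0.33 and -2.51 ± 0.64 (SE; edgeR adjusted p = 2.41e-05, 0.00046 and 0.0046). Since miR-486 itself fell with age, the covariate cannot tell erythroid RNA from age. The part of erythroid RNA in the change of miR-10b was not tested.

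**Figure D2:**
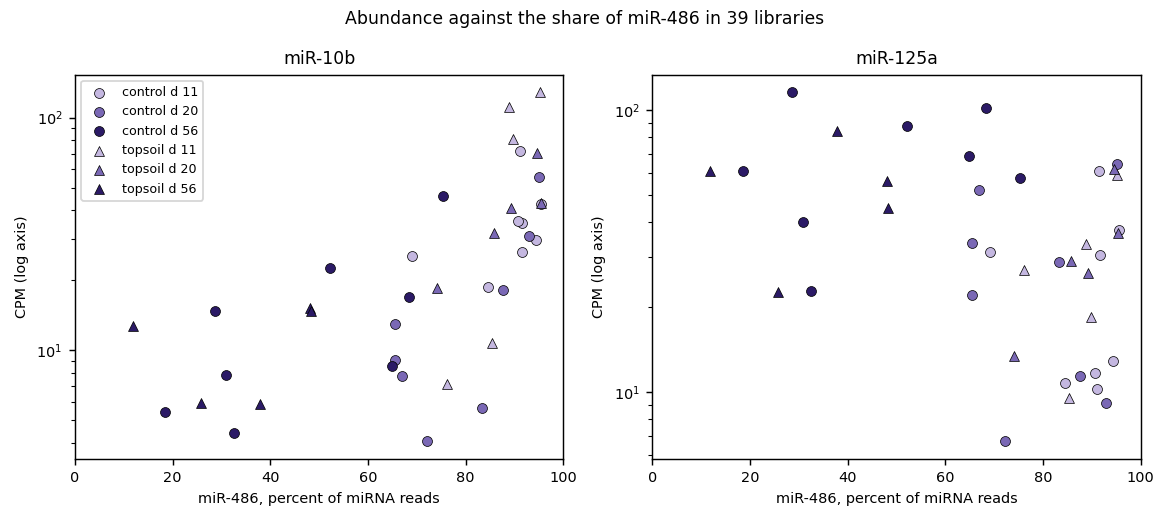
CPM of miR-10b and miR-125a on a log axis against the percent of miRNA reads held by miR-486, in 39 libraries. Circles are control and triangles topsoil piglets, darker with age. Libraries with more miR-486 tend to have more miR-10b, also among libraries of one age, and the d 56 libraries lie at lower shares of miR-486.

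miR-10a-5p, the HOXB member that differs from miR-10b by 1 base, was between 172 and 825 CPM in control piglets at d 11, with a median of 255, and between 85.2 and 479.8 CPM at d 56, with a median of 207. In topsoil piglets 1 to 5 it was 511, 584, 205, 61.1 and 121 CPM at d 11 and 197, 252, 260, 114 and 147 CPM at d 56. The ages overlapped in both treatments, and the fitted log2 change was -0.40 ± 0.33 (edgeR adjusted p = 0.431). It was -0.15 without topsoil piglet 2 and -0.66 without control piglet 6 (edgeR adjusted p = 0.792 and 0.147). It was lower in 7 and higher in 6 of 13 pigs on the CPM scale, and lower in 9 and higher in 4 on the scale without miR-486. The miRNAs most like miR-10a-5p outside the group were the lymphocyte miRNA miR-342, with a rho of 0.75, and miR-191, with 0.69.

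The ratio of 2 members within a library needs no scaling, and 3 pairs were compared this way after the values were seen. The family of 18 tests covered 3 pairs, 3 changes with age (exact sign-flip permutation over 13 pigs) and 3 comparisons of treatments (exact permutation of 8 against 5 piglets), all two-sided. The ratio of miR-10a-5p to miR-10b had medians of 9.16, 23.6 and 17.6 in control and 5.24, 9.24 and 17.7 in topsoil piglets at d 11, 20 and 56. It rose from d 11 to d 56 by 1.22 ± 1.06 on the log2 scale (SD, n = 13), in 11 of 13 pigs (exact permutation p = 0.00195, adjusted p = 0.0176). From d 11 to d 20 it rose by 1.01 ± 1.10 in 11 of 13 pigs (SD, n = 13; exact permutation p = 0.00879, adjusted p = 0.0396).

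miR-125a was between 10.3 and 60.9 CPM in control piglets at d 11, with a median of 21.8 CPM. It was between 6.70 and 64.4 CPM at d 20, with a median of 25.6, and between 22.9 and 116 CPM at d 56, with a median of 64.7. Topsoil piglets 1 to 5 had 59.0, 33.4, 18.4, 9.55 and 27.2 CPM at d 11, then 62.0, 13.4, 26.5, 36.6 and 29.1 CPM at d 20, and 84.1, 55.9, 44.8, 22.6 and 60.9 CPM at d 56. On this scale every piglet but control 4 had more miR-125a at d 56 than at d 11, although the ranges of the ages overlapped. On the scale without miR-486, 11 piglets had more and 2 had less, control 8 with 213 RPM at d 11 and 206 at d 56 being the other, and control 3 had 333 RPM at both. Topsoil piglet 4 was the lowest of its treatment at both d 11 and d 56.

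The log2 change of miR-125a from d 11 to d 56 was 1.23 ± 0.38 (SE; edgeR adjusted p = 0.0172). It was 1.51 ± 0.50 in control and 0.95 ± 0.57 in topsoil piglets (edgeR adjusted p = 0.0422 and 0.342), a difference of -0.57 ± 0.75 (edgeR adjusted p = 0.994). Relative to the median of all miRNAs it was 0.77 with the quantile, and between 0.74 and 0.84 with the other 3 scalings. The call was lost with library sizes without miR-486, where the change was 0.88 (edgeR adjusted p = 0.140), and with the miR-486 level as a covariate, where it was 1.52 (edgeR adjusted p = 0.223). From d 20 to d 56 the change was 0.95 ± 0.41 (edgeR adjusted p = 0.132), at 1.43 ± 0.49 in control piglets, which passed, and 0.47 ± 0.62 in topsoil piglets (edgeR adjusted p = 0.061 and 0.679). The difference between these was -0.95 ± 0.76 (edgeR adjusted p = 0.601).

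miR-125b, with the same seed as miR-125a, did not pass the test, at a log2 change of -0.27 ± 0.43 from d 11 to d 56 (edgeR adjusted p = 0.687). The change was -0.53 without control piglet 6 and -0.11 without topsoil piglet 3 (edgeR adjusted p = 0.302 and 0.892). In control piglets its median was 49.8 CPM at d 11, 40.5 at d 20 and 21.8 at d 56, and in topsoil piglets 31.6, 29.1 and 34.3 CPM. The control library of piglet 6 at d 11 had 1 read of miR-125b and 0 of miR-99a-5p beside 1182 of miR-10a-5p and 216 of miR-99b. The median ratio of miR-125a to miR-125b was 0.572, 0.550 and 2.76 in control and 0.645, 0.923 and 1.48 in topsoil piglets at d 11, 20 and 56. It rose from d 20 to d 56 in 13 of 13 pigs, by 1.63 ± 1.41 on the log2 scale (SD, n = 13; exact permutation p = 0.000244, the smallest this design can give, adjusted p = 0.00439). At d 56 every library had more miR-125a than miR-125b, with a ratio between 1.07 and 9. From d 11 to d 56 the ratio changed by 1.33 ± 2.15 (SD, n = 13; exact permutation p = 0.0476, adjusted p = 0.122), and it passed without control piglet 6 (1.76, exact permutation adjusted p = 0.022) or without topsoil piglet 1 (1.51, exact permutation adjusted p = 0.0904).

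**Figure D3:**
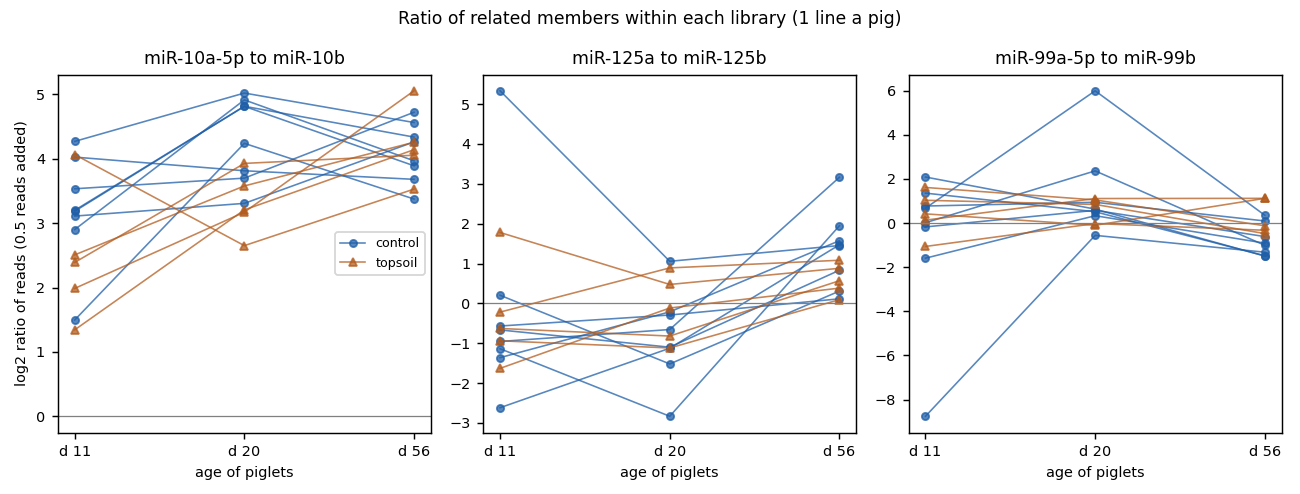
Log2 ratio of the reads of related members within each library, with 0.5 reads added, at d 11, 20 and 56. Each line is 1 of 8 control (circles) or 5 topsoil (triangles) piglets. The ratio of miR-125a to miR-125b rises in all 13 pigs from d 20 to d 56, and the extreme points of miR-99a-5p to miR-99b come from a library with 0 reads of miR-99a-5p and one with 2 reads of miR-99b.

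Of the miR-99 and miR-100 group, linked to the control of MTOR, edgeR with the quantile scaling called no member with age. With total counts, under which the median change of all miRNAs was 2.38 from d 11 and 1.79 from d 20 to d 56, edgeR called miR-99a-5p from d 11 to d 56 and miR-99b from d 11 and from d 20 to d 56, all higher at d 56. DESeq2 called miR-100 from d 11 to d 56 and miR-99a-5p from d 20 to d 56, and limma called miR-99a-3p from d 11 to d 56. miR-99a-5p was between 18.9 and 55.0 CPM in control piglets at d 20, with a median of 34.6, and between 11.2 and 30.1 CPM at d 56, with a median of 18.3. In topsoil piglets 1 to 5 it was 23.4, 27.6, 70.2, 119 and 32.2 CPM at d 20 and 41.0, 32.6, 24.7, 13.4 and 23.4 CPM at d 56. Its log2 change from d 20 to d 56 was -1.02 ± 0.56 (edgeR adjusted p = 0.273), and from d 11 to d 56 it was -0.56 ± 0.52 (edgeR adjusted p = 0.491). With total counts the first was 0.53 (edgeR adjusted p = 0.522) and the second 1.54 (edgeR adjusted p = 0.035). With the quantile scaling, the change from d 11 to d 56 was -0.18 without topsoil piglet 2 and -0.78 without topsoil piglet 1. miR-99b, from another cluster but with the same seed, had a log2 change of 0.13 ± 0.47 from d 11 to d 56 (edgeR adjusted p = 0.853), below 0 with TMM at -0.06 and with library sizes without miR-486 at -0.25.

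The ratio of miR-99a-5p to miR-99b had medians of 1.31, 1.52 and 0.514 in control and 1.34, 1.80 and 0.918 in topsoil piglets at d 11, 20 and 56. It fell by 1.44 ± 1.67 on the log2 scale from d 20 to d 56 (SD, n = 13), in 11 of 13 pigs (exact permutation p = 0.00439, adjusted p = 0.0264). The control library of piglet 4 at d 20 had 2 reads of miR-99b, and without that piglet the change was -1.09, the value nearest to 0 when any 1 piglet was left out. miR-100, which differs from miR-99a-5p by 1 base, had a log2 change of -1.05 ± 0.81 from d 11 to d 56 (edgeR adjusted p = 0.393). The change was -0.39 without topsoil piglet 2 and -1.52 without topsoil piglet 1. miR-100 had at most 78 reads in a library.

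Between d 11 and d 20, while the topsoil piglets had soil, 0 of the 8 members and 0 of 209 miRNAs (0.0%) were called by edgeR, with 0 members and 12 miRNAs at an unadjusted p under 0.05. DESeq2 called 0 members and 4 miRNAs, and limma called 0 and 0. The members' log2 changes were between -0.73 and 0.46. Between d 20 and d 56, 0 of the 8 members were called by edgeR against 34 of 209 miRNAs (16.3%), with miR-10b and miR-125a at an unadjusted p under 0.05. Within control piglets edgeR called 1 member, miR-125a, among 26 of 209 miRNAs (12.4%), and within topsoil piglets 0 members among 20 (9.57%). DESeq2 called 2 members, miR-10b and miR-99a-5p, among 52 of 209 miRNAs, and limma called 1 member, miR-125a, among 44.

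**Figure D4:**
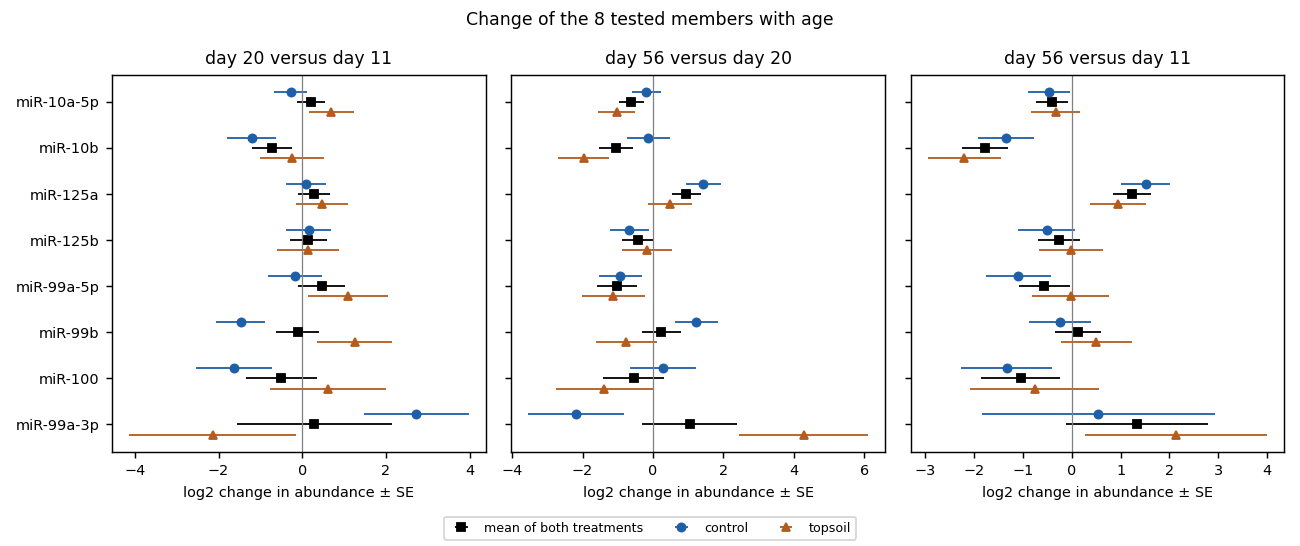
Log2 change in abundance of the 8 tested members between ages, from the edgeR fit, with the SE as bars. Squares are the mean of both treatments, circles control and triangles topsoil piglets. From d 11 to d 56 miR-10b lies below 0 at -1.78 and miR-125a above it at 1.23, and miR-99a-3p has the widest bars.

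The treatment by age interaction asks whether the piglets exposed to topsoil changed differently over time. edgeR called 0 of the 8 members and 0 of 209 miRNAs (0.0%), with 2 members and 22 miRNAs at an unadjusted p under 0.05. DESeq2 called 0 members and 0 miRNAs, and limma called 0 members and 2 miRNAs. The 2 members were miR-99a-3p and miR-99b (edgeR adjusted p = 0.462 for both).

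miR-99a-3p, the arm opposite miR-99a-5p, had few reads. In the 8 control libraries it had between 0 and 82 reads at d 11 with a median of 0, between 0 and 60 at d 20 with a median of 24.5, and between 0 and 89 at d 56 with a median of 20.0. The 5 topsoil libraries had 0, 0, 0, 7 and 26 reads at d 11, then 0, 6, 0, 0 and 0 at d 20, and 40, 34, 60, 40 and 20 at d 56. It was thus listed at 0 in 3 of 5 topsoil and 5 of 8 control libraries at d 11, in 4 of 5 and 1 of 8 at d 20, and in 0 of 5 and 2 of 8 at d 56. The 3′ and 5′ arms had a Spearman's rho of -0.07 over the 39 libraries. With the 3′ arm at 0 in 15 of these, the rho cannot show whether the arms move together.

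miR-99b had a log2 change from d 11 to d 20 of -1.47 ± 0.60 in control and 1.26 ± 0.89 in topsoil piglets, a difference of 2.73 ± 1.10 (SE; edgeR adjusted p = 0.511). Without the control library of piglet 4 at d 20, the one with 2 reads of miR-99b, the unadjusted p of its interaction by edgeR was 0.0758 in place of 0.0466. This p was between 0.0158 and 0.345 with each pig left out, the highest without topsoil piglet 4, and was 0.588 with scaling by total counts and 0.123 without the replicate block, and limma gave 0.429. Its control values were between 6.93 and 101 CPM at d 11 and between 0.591 and 38.8 CPM at d 20. Its topsoil values were 30.1, 37.8, 25.4, 4.30 and 9.29 CPM at d 11 and 23.8, 13.3, 75.1, 55.0 and 17.9 CPM at d 20. The treatments overlapped at both ages.

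Topsoil and control piglets were also compared at each age alone, with 5 against 8 libraries. At d 11, edgeR and DESeq2 called 0 of the 8 members, edgeR called 0 of 209 miRNAs (0.0%) and DESeq2 3, and at an unadjusted p under 0.05 edgeR had 0 members and 7 miRNAs. The members' log2 differences (topsoil against control) were between -1.47 and 0.96. At d 56, edgeR called 0 members and 0 of 209 miRNAs (0.0%), with 0 members and 5 miRNAs at an unadjusted p under 0.05, and DESeq2 called 0 and 0. The differences were between -1.12 and 1.32. At these group sizes the SE of a member's difference was between 0.37 and 1.05 at d 56.

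At d 20, the end of the exposure, edgeR called 0 of the 8 members and 2 of 209 miRNAs (0.957%), with 2 members and 28 miRNAs at an unadjusted p under 0.05. DESeq2 called 9 miRNAs, among them 1 member, miR-99a-3p (adjusted p = 0.0205). The log2 difference of miR-99a-3p was -5.21 ± 1.57 (SE; edgeR adjusted p = 0.190), which rests on the 6 reads of 1 topsoil library against 187 reads in the control libraries. Without that piglet, topsoil 2, it was called by edgeR (adjusted p = 0.0933), with the topsoil group then at 0 in every library. miR-10b had a log2 difference of 1.32 ± 0.62 (edgeR adjusted p = 0.352), which was 0.76 with the miR-486 level as a covariate (edgeR adjusted p = 0.533). It was 0.66 with scaling by total counts, under which the median of all miRNAs was -1.24. The share of miR-486 at this age was between 65.5% and 95.1% in control and between 74.0% and 95.5% in topsoil libraries, and its log2 difference was 0.92 ± 0.79 (SE; edgeR adjusted p = 0.643). The other erythroid miRNAs, miR-451 and miR-144, had differences of the opposite sign, -1.25 ± 0.50 and -1.37 ± 0.87 (SE; edgeR adjusted p = 0.296 and 0.515). The vascular or platelet miR-126-5p and miR-126-3p had differences of -4.41 ± 1.55 and -3.24 ± 1.48 (SE, edgeR adjusted p = 0.280 and 0.335). That of miR-143-3p was 1.16 ± 0.67 (SE, edgeR adjusted p = 0.436). The paper describes miR-126-5p as more abundant in topsoil piglets at d 20, with miR-143-3p as an exception. Under the labels and fit used here both went the other way.

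The ratio of miR-10a-5p to miR-10b at d 20 was between 9.92 and 32.6 in control piglets and was 9.02, 15.2, 9.24, 12.0 and 6.29 in topsoil piglets 1 to 5. Topsoil piglets 1, 3 and 5 were below every control library and the other 2 overlapped them. The log2 difference (topsoil against control) was -1.02 (exact permutation p = 0.014, adjusted p = 0.0503, two-sided, 13 piglets), and it was -0.76 at d 11 (exact permutation adjusted p = 0.303) and 0.11 at d 56 (exact permutation adjusted p = 0.794). The call at d 20 was lost without topsoil piglet 3 (exact permutation adjusted p = 0.109) or topsoil piglet 5 (exact permutation adjusted p = 0.114). The ratio of miR-99a-5p to miR-99b at d 56 was between 0.354 and 1.28 in control piglets and 0.798, 0.918, 2.18, 2.18 and 0.718 in topsoil piglets, a log2 difference of 1.06 (exact permutation p = 0.0311, adjusted p = 0.0932). This difference, then between 0.85 and 1.09, no longer passed without control piglet 1, 2, 3, 5, 6 or 7 or without topsoil piglet 3 or 4.

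miR-125b, whose second gene was not placed here and whose reads cannot be assigned to chromosome 9 alone, was closest to miR-99a-5p, with a Spearman's rho of 0.83 over the 39 libraries, and 0.79 after the mean of each treatment and age was taken away. miR-10a-5p and miR-10b had a rho of 0.76, and of 0.78 after the same step. miR-125a was closest among the members to miR-99b, its neighbour on chromosome 6, with a rho of 0.49, while miR-100 and miR-125b had one of 0.24. The median over all 21736 pairs of tested miRNAs was 0.08. All these values share libraries, pigs and scaling and describe them only.

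Outside the group, miR-125b was most like miR-181d-5p (Spearman's rho 0.62) and miR-1271-5p (0.59), the same pair that was most like miR-99a-5p (0.59 and 0.66). miR-125a was most like miR-92b-3p (0.61) and miR-9860-5p (0.58), and miR-99b was most like miR-221-5p (0.64) and miR-6529 (0.63). The closest to miR-100 were miR-23b (0.49) and miR-183 (0.46), and those to miR-99a-3p were miR-34a (0.60) and miR-4331-3p (0.59). After miR-486, miR-9841-3p was closest to miR-10b (0.71).

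The let-7 miRNAs with genes in the same clusters did not pass the test from d 11 to d 56, at log2 changes of -0.42 ± 0.19 for let-7a, -0.52 ± 0.24 for let-7c and 0.53 ± 0.36 for let-7e (SE; edgeR adjusted p = 0.125, 0.125 and 0.328), nor in any other comparison over both treatments or between them. Within control piglets alone let-7c fell from d 11 to d 56, with a log2 change of -0.92 ± 0.31 (SE; edgeR adjusted p = 0.0422), against -0.12 ± 0.36 in topsoil piglets (edgeR adjusted p = 0.918). The difference between these was 0.80 ± 0.47 (edgeR adjusted p = 0.994). let-7a has the same mature sequence at MIRLET7A-1 on chromosome 9 and at MIRLET7A-2 on chromosome 3, so its value is not that of the chromosome 9 gene alone. let-7e, which lies between miR-99b and miR-125a, had a rho of -0.12 with the first and 0.20 with the second, while let-7c had one of 0.46 with miR-99a-5p and let-7a one of 0.18 with miR-100. Of the other miRNAs of the HOX clusters, miR-196b-5p alone was tested and was not called in any comparison, while miR-196a had 9 reads in all and miR-615 and miR-196b-3p had none.

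Among the miRNAs used as markers of cell types, the lymphocyte miRNA miR-150 rose by 0.87 ± 0.21 and miR-142-5p of leukocytes by 1.55 ± 0.24 from d 11 to d 56 on the log2 scale (SE; edgeR adjusted p = 0.00292 and 1.13e-05). The other lymphocyte miRNA, miR-342, and the myeloid miR-223 did not pass, at -0.20 ± 0.29 and 0.60 ± 0.33 (edgeR adjusted p = 0.659 and 0.211), nor did the other leukocyte arm, miR-142-3p, at 0.71 ± 0.42 (edgeR adjusted p = 0.257). Of 6 vascular or platelet arms 3 were tested, and miR-143-3p fell, with a log2 change of -1.66 ± 0.36 (SE; edgeR adjusted p = 0.000871). The other 2, miR-126-3p and miR-126-5p, did not pass, at 0.91 ± 1.27 and 1.15 ± 0.85 (edgeR adjusted p = 0.655 and 0.379). miR-145-5p and miR-145-3p had 9 and 10 reads in all, and miR-143-5p had 0. The summed level of the lymphocyte pair was between 1236 and 6182 CPM in control libraries at d 11 and between 2896 and 5966 at d 56, and in topsoil libraries between 1290 and 4535 and between 3322 and 6968 CPM. Most of it was miR-150, with 1420244 reads in all against 110551 of miR-342. The vascular or platelet list summed to between 39.2 and 217 CPM at d 11 and between 18.8 and 185 at d 56 in control libraries, and to between 36.8 and 291 and between 14.1 and 61.1 CPM in topsoil libraries. Their part in the changes of the members was not tested.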

How the data were processed

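Small RNA libraries of PBMCs from 13 piglets at 3 ages were analysed. The authors checked reads with FastQC 0.11.3, trimmed them with Trim Galore 0.4.5, mapped them to Sscrofa11.1 with miRDeep2 and deposited raw read counts per mature miRNA and precursor, with no normalization. The members and lists were chosen with earlier results of these data known. Where a name had several entries, the largest was kept. miR-125b has 2 entries, with 15422 and 15409 reads.

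The 75% quantile served for scaling, and the fit was made in R 4.3.3 with edgeR 4.0.16 (quasi-likelihood, Benjamini-Hochberg over 209 miRNAs, false discovery rate 0.10), with pig, RQI, age and treatment by age. The study's random pig effect was replaced by a block. Treatments at 1 age were fitted without it. Numbers mark the same pig, whose deviations correlated by 0.063 on average between ages, against -0.0059 between pigs. The miRNAs named are all members, the let-7 and HOX cluster miRNAs, markers, miR-486 and the 2 miRNAs most like a member by Spearman's rho. The code was tested on simulated data. Ratios used 0.5 added reads and Python 3.11.15 with scipy 1.17.1. Alternatives used DESeq2 1.42.0, limma 3.58.1 (pig as a random effect, with sex and parity), other scalings, filters and covariates, and each pig left out. The 3 libraries left out singly and the ratios were added after the data were seen. Without molecular identifiers, the error of a low count is more than that of counting, and depth is mainly the reads other than miR-486. The mRNA table was not used here.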

Additional observations from a re-analysis of the deposited data

Results flagged for a closer look

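In 54 groups of 5 or 8 libraries, 8 single values lay farther from the nearest other value than Dixon's 95% limit allows. For normally distributed values chance gives about 1 in 20 groups, or 2.7. These were CPM and percentages without a log, and all 8 lay at the high end. A group with reads in only 1 library is flagged whatever the value, so 8 cannot be weighed against 2.7. Control piglet 6 stood apart for miR-10b at d 11, with 71.7 CPM against 42.6 in the next library, and at d 56, with 46.2 CPM against 22.5. The same piglet at d 56 had 5.98 CPM of miR-100 against 2.91. Control piglet 4 had 4.77 CPM of miR-99a-3p at d 11 against 1.63, and 10.1 CPM at d 20 against 3.91. In its d 20 library the members held 0.416% of the reads other than miR-486, against 0.257% in the next. Topsoil piglet 2 had 116 CPM of miR-99a-5p at d 11 against 34.0, and 0.357 CPM of miR-99a-3p at d 20 where the other 4 libraries were at 0. In no comparison of ages did every control piglet move one way and every topsoil piglet the other.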

How the results depend on the processing

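The counts of members called were 0 under every alternative run from d 11 to d 20, for the interaction and between treatments at d 11 and d 56. From d 11 to d 56 the 2 calls became 5 with total counts (miR-125a, miR-10a-5p, miR-125b, miR-99a-5p and miR-99b, all higher; 162 of 209 miRNAs called), 1 with library sizes without miR-486 (miR-10b; 42) and 0 with the miR-486 covariate (7), and stayed 2 with each pig left out. From d 20 to d 56 the 0 calls became 3 with total counts (miR-125a, miR-10a-5p and miR-99b, all higher; 108 of 209 called), 2 with DESeq2 (52), 1 with library sizes without miR-486 (miR-10b; 32) and 1, miR-125a, each with limma with a random pig effect, sex and parity (44), a mean of at least 50 reads (41 of 133), no RQI (48 of 209), and the d 20 library of control piglet 4 left out (35), and ranged from 0 to 3 with each pig left out (3 without control piglet 6, 1 without control or topsoil piglet 4). Without the replicate block the calls were 1 from d 20 to d 56 (miR-125a, edgeR adjusted p = 0.096; 48 of 209 miRNAs) and 2 from d 11 to d 56 (67). From d 11 to d 56 DESeq2 called miR-100 as well (68 of 209 miRNAs), and limma called miR-99a-3p as well (63). Between treatments at d 20 the 0 calls became 1 with DESeq2 (9 of 209 miRNAs) and ranged from 0 to 1 with each pig left out, 1 without topsoil piglet 2. Signs turned from d 11 to d 56 with total counts (miR-10b 0.27, miR-10a-5p 1.61, miR-125b 1.75, miR-99a-5p 1.54, miR-100 1.11) and with the miR-486 covariate (miR-10b 0.23, miR-10a-5p 1.15, miR-125b 0.36, miR-99a-5p 0.046, miR-100 0.019, miR-99a-3p -0.72, miR-99b -0.75). miR-99b also turned with TMM (-0.059), library sizes without miR-486 (-0.25), DESeq2 (-0.13) and no filter (-0.033), and ranged from -0.089 to 0.24 with each pig left out. From d 20 to d 56 signs turned with total counts (miR-10b 0.78, miR-10a-5p 1.10, miR-125b 1.14, miR-99a-5p 0.53, miR-100 1.14), the covariate (miR-10b 0.84, miR-10a-5p 0.76, miR-125b 0.11, miR-100 0.42, miR-99a-3p -0.74, miR-99b -0.48), library sizes without miR-486 (miR-99b -0.077) and no replicate block (miR-100 0.081). The ratio of miR-99a-5p to miR-99b from d 11 to d 56, -0.12, ranged from -0.75 to 0.17 with each pig left out. Total counts also turned signs between treatments. At d 20 these were miR-100 (-0.60), miR-10a-5p (-0.52), miR-125a (-0.86), miR-99a-5p (-0.78) and miR-99b (-0.90). At d 11 they were miR-10a-5p (-0.45) and miR-125a (-0.17), and at d 56 miR-10a-5p (0.22), miR-10b (0.094) and miR-125a (0.075). From d 11 to d 20 miR-99b turned with total counts (0.53). Library sizes without miR-486 turned miR-10a-5p between treatments at d 11 (-0.15). The causes were not tested. miR-99a-3p, miR-100 and miR-10a-3p are limited by depth.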
